A study of Mus musculus with 6 samples.

Results

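The genes described here are the receptors, signal transducers and inhibitors of the WNT pathway, 37 of the 55401 genes in the tables, chosen by name and function. They comprise 10 frizzled receptors (Fzd1 to Fzd10), 5 co-receptors and receptors with a kinase-like domain (Lrp5, Lrp6, Ror1, Ror2, Ryk), 3 dishevelled transducers (Dvl1, Dvl2, Dvl3), 4 genes of the β-catenin destruction complex (Apc, Axin1, Axin2, Gsk3b), 4 nuclear factors (Lef1, Tcf7, Tcf7l1, Tcf7l2), 8 secreted inhibitors (Sfrp1, Sfrp2, Sfrp4, Sfrp5, Frzb, Dkk2, Dkk3, Wif1) and 3 genes of receptor turnover (Rnf43, Znrf3, Lgr5). Bulk RNA sequencing was done on lymphatic endothelial cells (LECs) sorted from the dorsal dura mater, the outer meningeal layer that carries the meningeal lymphatic vessels. The sort kept LYVE-1+/Podoplanin+/CD31+ cells that lacked CD45, the leukocyte marker. Wild-type mice, young C57BL/6J males per the study's methods, received a single adeno-associated virus in the cisterna magna. Both groups therefore carried a vector: AAV-VEGF-C made full-length mouse VEGF-C, the growth factor of lymphatic endothelium, and AAV-CTRL made a soluble part of its receptor VEGFR-3 that does not bind VEGF-C. Each group had 3 libraries, 1 from each of 3 experiments, and each library pooled the meninges of 10 to 12 mice, so the spread between libraries is a spread between pools.

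WNT proteins are secreted ligands. A WNT that binds a frizzled receptor together with Lrp5 or Lrp6 recruits dishevelled to the membrane, which stops the destruction complex of Axin, Apc and Gsk3b from marking β-catenin for degradation, and β-catenin then acts with TCF/LEF factors on target genes. Secreted frizzled-related proteins and Wif1 bind the ligands, Dickkopf proteins act on the co-receptors, and the ubiquitin ligases Rnf43 and Znrf3 remove frizzleds from the cell surface unless R-spondins and Lgr receptors restrain them. In endothelium the pathway is known for the blood-brain and blood-retina barriers, where Fzd4 takes part, and for the formation of lymphatic valves.

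TCF and LEF proteins bind DNA elements built around the letters CTTTG, on either strand, and Axin2 is a widely used target gene of the pathway. The 250 bases upstream of the RefSeq start (GRCm38.p6) are shown for Fzd7 and Fzd1, the most abundant frizzled genes in the AAV-CTRL libraries, and for Axin2, 5′ to 3′ on the strand of the gene, with these letters, or their reverse complement, in capitals. The Fzd7 window is chr1:59481897-59482146 on the plus strand, the Fzd1 window chr5:4758217-4758466 on the minus strand and the Axin2 window chr11:108920099-108920348 on the plus strand.
Fzd7: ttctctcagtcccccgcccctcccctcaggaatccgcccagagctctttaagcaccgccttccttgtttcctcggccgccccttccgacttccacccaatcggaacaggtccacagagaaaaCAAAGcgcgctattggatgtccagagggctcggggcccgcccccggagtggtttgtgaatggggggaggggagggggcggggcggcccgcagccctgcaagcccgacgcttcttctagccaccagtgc
Fzd1: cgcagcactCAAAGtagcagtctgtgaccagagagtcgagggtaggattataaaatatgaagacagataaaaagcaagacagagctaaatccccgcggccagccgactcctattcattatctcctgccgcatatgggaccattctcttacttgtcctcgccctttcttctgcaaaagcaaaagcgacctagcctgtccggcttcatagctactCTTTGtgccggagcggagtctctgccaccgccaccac
Axin2: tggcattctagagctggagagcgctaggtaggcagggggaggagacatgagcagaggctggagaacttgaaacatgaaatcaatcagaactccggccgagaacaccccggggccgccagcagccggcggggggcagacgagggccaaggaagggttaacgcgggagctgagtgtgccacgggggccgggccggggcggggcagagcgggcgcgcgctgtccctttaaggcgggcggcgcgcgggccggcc
The Fzd7 window held the letters at 1 place, the Fzd1 window at 2 and the Axin2 window at 0. RefSeq windows were matched for 24 of the 37 genes, 30 windows in all, and 17 of them (56.7%) held CTTTG on either strand, beside 48.6% of all 32851 windows of the same length. The longer forms CTTTGAT and CTTTGAA, which contain the shorter one, were in 0 of the 30 windows and in 7.48% of all windows. The 30 windows had a median GC content of 64.8%, against 52.4% over all windows. A match is a stretch of letters and was not tested as a binding site.

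The libraries differed in ways that bear on every value below. Totals were 6530269, 7858091 and 12399498 estimated counts in the AAV-CTRL libraries and 564475, 1435008 and 3261935 in the AAV-VEGF-C libraries of experiments 1, 2 and 3, so depth and treatment cannot be told apart. Genes that these cells should not use (1651 receptors of smell, of pheromones and of bitter taste, defensins and keratin-associated proteins, here the silent families) summed to 276, 160 and 114 CPM (counts scaled to the library total) under AAV-CTRL and to 8964, 3680 and 2573 CPM under AAV-VEGF-C. CPM values here are scaled by TMM factors, which set the libraries on a common level for the bulk of their genes. Only the level of the filter on low counts, given below, is scaled by the library total alone. Transcripts of LECs were present in every library: Prox1, the master regulator of lymphatic identity, had 106, 43.1 and 35.5 CPM under AAV-CTRL and 233, 63.1 and 34.2 under AAV-VEGF-C. Transcripts of other cells were present too. A list of 9 fibroblast genes summed to between 10244 and 25025 CPM under AAV-CTRL and between 6539 and 11336 under AAV-VEGF-C, above the 8 LEC markers in every library. A list of 6 leukocyte genes, which the CD45- gate should leave out, summed to 92.2 and 159 CPM in the libraries of experiment 1 and to between 1623 and 4401 in the other 4. In such bulk libraries, fewer cells of a type and less RNA per cell cannot be told apart, and the level of a gene below is that of the sorted material and not of a LEC alone.

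In the AAV-CTRL libraries the inhibitor Sfrp4 and the co-receptors Lrp6 and Lrp5 stood highest among the 37 genes. Levels are compared between genes in TPM, which corrects for gene length as well as for the library total. Sfrp4, a secreted frizzled-related protein, had 91.8 ± 33.7 TPM (SD, n = 3), Lrp6 66.7 ± 12.2, Lrp5 62.3 ± 15.6 and Sfrp2 47.7 ± 28.1, and neighbours in this order did not differ beyond their spread. Fzd7 (29.0 ± 8.95 TPM) and Dkk3 (28.2 ± 7.35), a divergent member of the Dickkopf family, came next, followed by Tcf7l1 (24.3 ± 7.55), Apc (21.8 ± 9.67), Axin1 (21.1 ± 5.31), Fzd1 (16.8 ± 6.89), Tcf7l2 (16.8 ± 2.03) and Gsk3b (14.9 ± 5.90). At the low end were Fzd9 (0.886 ± 0.613 TPM), Fzd3 (0.867 ± 0.486), Rnf43 (0.732 ± 0.349), Fzd10 (0.514 ± 0.460), Wif1 (0.383 ± 0.535) and Lgr5 (0.253 ± 0.222). Fzd7 was the highest frizzled in all 6 libraries and Sfrp4 the highest secreted inhibitor in all 6. In TPM, the leading gene of the TCF/LEF factors was Tcf7l1 in the 3 AAV-CTRL libraries and Tcf7l2 in the 3 AAV-VEGF-C libraries. In normalised CPM, Tcf7l1 was above Tcf7l2 in all 6 libraries, so the change of leading gene held in TPM only.

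How far a level can be read depended on the library. The 99th percentile of the silent families was 0.474, 0.350 and 0.428 TPM in the AAV-CTRL libraries, and 33 of the 37 genes were above it in all 3 of them. Only Fzd9, Fzd10, Wif1 and Lgr5 were not. In the AAV-VEGF-C libraries the same percentile was 6.40, 2.94 and 1.87 TPM. Sfrp4, Lrp5 and Dvl3 were above it in all 3 libraries, 3 of 37 genes, and 12 of the 37 were above it in none. Lrp6 missed it in 1 library only, with 6.38 TPM against 6.40. Without the AAV-VEGF-C library of experiment 1, the shallowest, 15 genes were above it in both others, and with the 90th percentile in place of the 99th, 24 were above it in all 3.

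**Figure D1:**
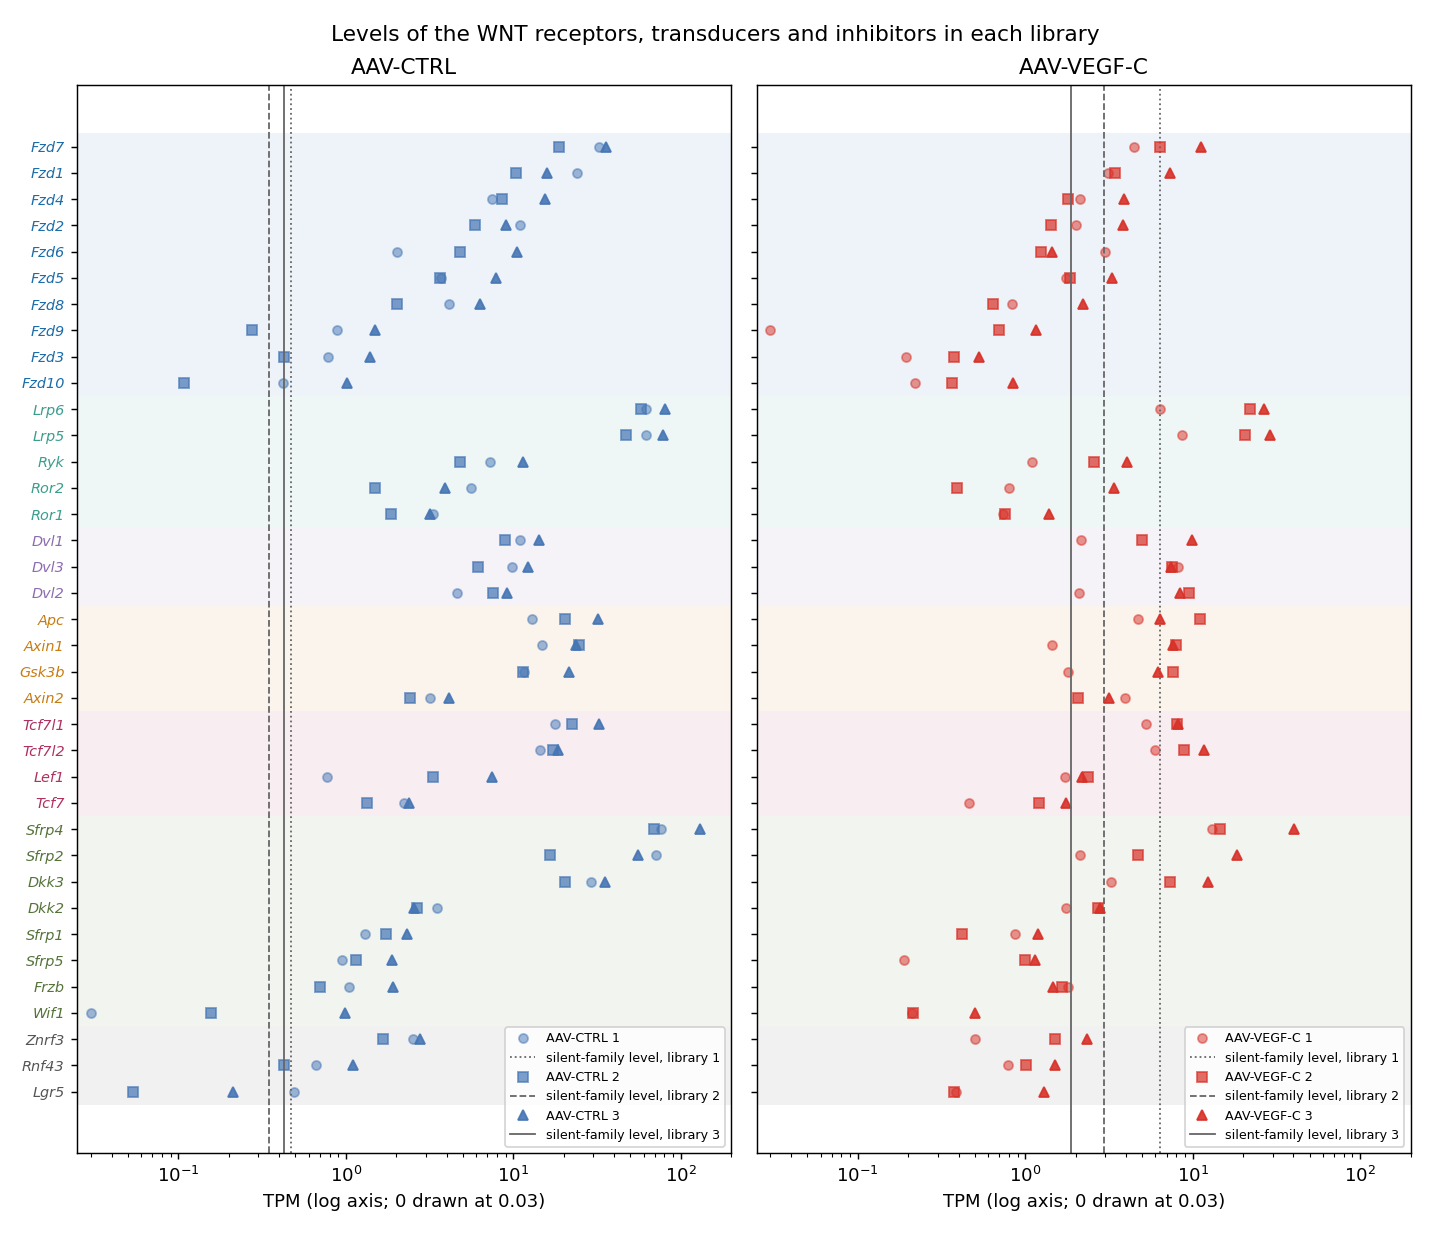
TPM (log axis, 0 drawn at 0.03) of the 37 genes in the 3 AAV-CTRL libraries (left) and the 3 AAV-VEGF-C libraries (right), 1 symbol per library, with the 99th percentile of the silent families in each library as a vertical line. On the left, 33 genes lie right of the line of the same library in all 3 libraries, on the right 3 do, and the lines sit at 0.350 to 0.474 TPM on the left and at 1.87 to 6.40 TPM on the right.

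Between the groups, none of the abundant genes passed the test. The one call among the 37 was for Lgr5, a receptor for R-spondins at 3 to 24 counts per library, which was higher with AAV-VEGF-C, while 0 were called lower and 35 did not pass (edgeR's quasi-likelihood test over 17459 genes, Benjamini-Hochberg adjusted p under 0.05). The filter on low counts kept genes with at least 2.04 CPM, before TMM scaling, in 3 libraries. No AAV-CTRL library reached this for Lgr5, which was tested only because all 3 AAV-VEGF-C libraries did, so its call is a description and not support for a change. Of the other tested genes, Fzd9, Fzd10 and Lef1 also needed an AAV-VEGF-C library to be kept, and 32 reached the level in all 3 AAV-CTRL libraries. Wif1 was left out. Over the whole table, 2081 of the 17459 tested genes had no AAV-CTRL library at that level. Over all genes tested, 10.5% were called higher and 0.659% lower, so that 1 higher and 0 lower of 36 was below the background for higher calls. At an unadjusted p under 0.05, 9 of 36 (25.0%) differed, 3 higher (Lgr5, Rnf43, Dvl3) and 6 lower (Lrp6, Fzd7, Fzd4, Sfrp2, Sfrp4, Dkk3), against 28.1% of all genes in either direction. With the experiment as a block in edgeR, 2 were called lower (Sfrp4, Sfrp2) beside 2.07% of all genes. DESeq2 called 4 of the genes lower (Sfrp4, Sfrp2, Lrp6, Dkk3), and 1.13% of its 44552 genes. With no filter on low counts edgeR called 7 lower (Sfrp4, Sfrp2, Lrp6, Dkk3, Fzd7, Fzd4 and Fzd1), and 2.64% of 44563 genes. These last 2 shares include genes below the filter, and the median log2 differences over those tables were 2.29 and 1.88. They are thus no like background for abundant genes, and a share among genes of similar level was not computed.

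Most of the abundant genes had negative differences, as had most abundant genes of the whole table. Of the 18 genes that averaged at least 5 TPM over the 6 libraries, 16 had a negative log2 difference (AAV-VEGF-C over AAV-CTRL), with a median of -0.69. The 7234 tested genes at that level had a median of -0.41. Of the other 19 genes, 18 were tested, 11 of them positive and 7 negative. In this range the filter itself favoured genes that were high in the shallow AAV-VEGF-C libraries, since 1970 of 10225 tested genes below 5 TPM had no AAV-CTRL library at 2.04 CPM, and nothing is read from these signs. In normalised CPM, 7 of the 36 tested genes (19.4%) had all 3 AAV-VEGF-C libraries below all 3 AAV-CTRL libraries, beside 17.6% of all genes, and 3 (8.33%) had all 3 above, beside 22.3%. In TPM, 17 of the 36 (47.2%) had all AAV-VEGF-C libraries below, beside 36.4% of all genes. When libraries were scaled on the 2000 most abundant genes, the median over the whole table went from 0.00 to 0.30, and 17 of the 36 genes were negative instead of 23, while 21 instead of 23 were below the median of all genes.

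**Figure D2:**
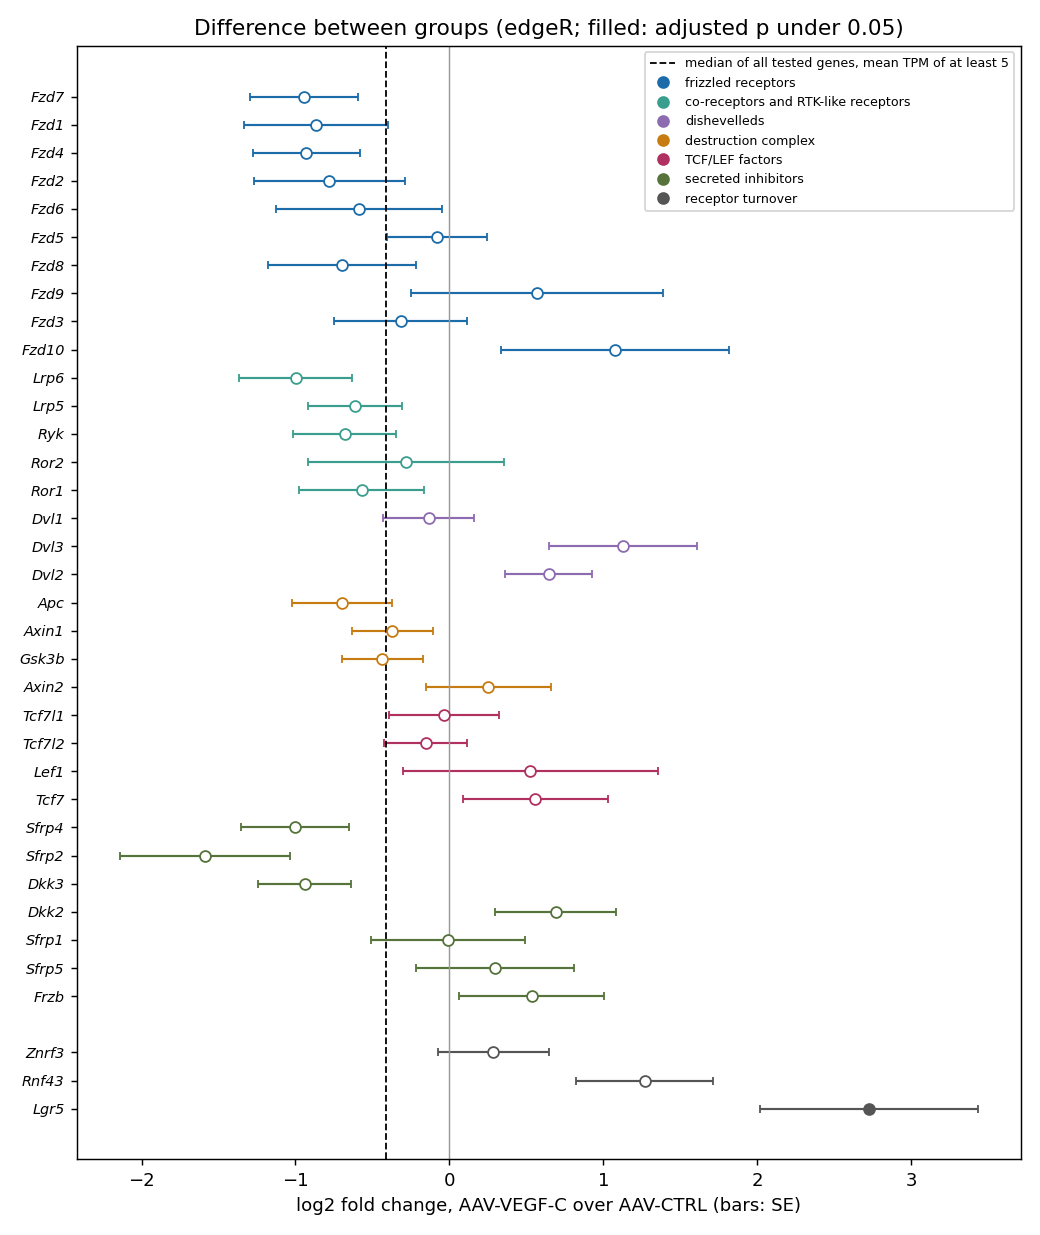
Log2 fold change of AAV-VEGF-C over AAV-CTRL with its SE (edgeR) for the 36 genes tested, grouped by role and ordered by level within a role, with the median of all tested genes at or above 5 TPM as a dashed line. The filled point is Lgr5 at 2.72, the only gene past the adjusted threshold, kept by the filter through its AAV-VEGF-C libraries alone. Fzd7, Fzd1, Fzd4, Fzd2, Lrp6, Lrp5, Sfrp4, Sfrp2 and Dkk3 are among the genes left of the dashed line at -0.41.

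Frizzled receptors had a median log2 difference of -0.64, with 8 of 10 negative and 0 of 10 called. Fzd7 (ENSMUSG00000041075.8, a single-exon gene at chr1:59482424-59486955, GRCm38), whose promoter is shown above, had 1802, 1133 and 2577 counts under AAV-CTRL and 52, 114 and 399 under AAV-VEGF-C. This gave 289, 144 and 174 CPM against 120.2, 81.7 and 115, or 32.6, 18.8 and 35.6 TPM against 4.48, 6.35 and 11.2. The groups did not overlap in either unit, and the log2 fold change was -0.94 (SE 0.35, adjusted p = 0.127, edgeR). Fzd4, the receptor of Norrin as well as of WNTs, had 85.6, 86.9 and 108 CPM against 69.3, 30.1 and 50.6, again without overlap (log2 fold change -0.93, SE 0.35, edgeR adjusted p = 0.129). Fzd1 had 1208, 569 and 1112 counts against 34, 57 and 241, which was 194, 72.4 and 75.3 CPM against 78.6, 40.9 and 69.3. Its TPM values were 24.1, 10.4 and 16.0 against 3.12, 3.42 and 7.36, and only in TPM were the groups apart (log2 fold change -0.87, SE 0.47, edgeR adjusted p = 0.270). Fzd2 (-0.78), Fzd8 (-0.70), Fzd6 (-0.59), Fzd3 (-0.32) and Fzd5 (-0.08) were negative in log2 fold change, and Fzd9 (0.57) and Fzd10 (1.07), at 0 to 23 counts in the AAV-VEGF-C libraries, positive. As a share of the summed TPM of all 10 frizzleds, Fzd7 made up 37.4%, 34.3% and 34.0% under AAV-CTRL and 25.3%, 34.9% and 31.4% under AAV-VEGF-C (two-sided exact permutation p = 0.3, adjusted p = 0.45 over 6 shares; 0.1 is the smallest p that 3 against 3 allows).

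All 5 co-receptors and kinase-like receptors had negative log2 differences, with a median of -0.61, and 0 of 5 passed the test. Lrp6, the co-receptor that binds Axin once phosphorylated, had 5108, 5353 and 8581 counts under AAV-CTRL and 93, 631 and 1291 under AAV-VEGF-C. In CPM it had 820.2, 681 and 581 against 215, 452 and 371, and in TPM 61.9, 57.7 and 80.6 against 6.38, 22.1 and 26.8. Every AAV-VEGF-C library was below every AAV-CTRL library in both units, and the log2 fold change was -1.0 (SE 0.37, adjusted p = 0.125, edgeR). Lrp5 had 4261, 3460 and 6592 counts against 147, 454 and 1255, or 684, 440.1 and 446 CPM against 339.7, 325 and 361. Its TPM values were 62.1, 46.8 and 78.1 against 8.67, 20.5 and 29.1, likewise without overlap (log2 fold change -0.61, SE 0.31, edgeR adjusted p = 0.236). The 2 co-receptors were at nearly equal levels: Lrp6 made up 49.9%, 55.2% and 50.8% of the summed TPM of both under AAV-CTRL and 42.4%, 51.9% and 48.0% under AAV-VEGF-C (exact permutation p = 0.3). Ryk (-0.68), Ror1 (-0.57) and Ror2 (-0.28), known mainly for signalling that does not run through β-catenin, had 1.10 to 4.05, 0.741 to 1.40 and 0.392 to 3.41 TPM in the AAV-VEGF-C libraries.

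Of the dishevelleds, Dvl3 and Dvl2 had positive log2 differences on the count scale but not on the TPM scale, and 0 of 3 passed the test. Dvl3 had 436, 308 and 637 counts under AAV-CTRL and 84, 119 and 206 under AAV-VEGF-C, or 70.0, 39.2 and 43.1 CPM against 194, 85.3 and 59.2. It was higher in the AAV-VEGF-C library in each of the 3 experiments, although the groups overlapped (log2 fold change 1.12, SE 0.48, edgeR adjusted p = 0.174). Its TPM values were 9.79, 6.14 and 12.2 against 8.14, 7.56 and 7.40, and on the log2(TPM + 1) scale the limma difference was -0.21. Dvl2 had 27.1, 26.7 and 22.0 CPM against 37.0, 48.7 and 32.8, without overlap (log2 fold change 0.64, SE 0.28, edgeR adjusted p = 0.183), and its exons overlap Acadvl and Mir324, so that some of its counts are uncertain. Dvl1 had a log2 fold change of -0.14 (SE 0.30). Dvl3 made up 38.6%, 27.1% and 34.3% of the summed dishevelled TPM under AAV-CTRL and 65.8%, 34.4% and 28.8% under AAV-VEGF-C. The mean difference of 9.64 percentage points came from the AAV-VEGF-C library of experiment 1, since without it the difference was -1.75.

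In the destruction complex 3 of 4 genes had negative differences and none passed the test. Apc, the large scaffold of the complex, had 796, 1163 and 2788 counts under AAV-CTRL and 29, 178 and 312 under AAV-VEGF-C, or 128, 148 and 189 CPM against 67.0, 128 and 89.7. Its TPM values were 12.9, 20.5 and 32.1 against 4.75, 11.1 and 6.39, and the groups were apart in both units, in CPM by a margin of under 1 (log2 fold change -0.70, SE 0.32, edgeR adjusted p = 0.207). Axin1, the limiting scaffold, had 319, 421 and 603 counts against 16, 46 and 147. In CPM it had 51.2, 53.6 and 40.8 against 37.0, 33.0 and 42.3, with overlap, and in TPM 14.9, 24.5 and 23.7 TPM against 1.45, 7.96 and 7.59, without overlap (log2 fold change -0.37, SE 0.26). Gsk3b, the kinase, had 713, 745 and 1612 counts against 29, 133 and 251, or 11.5, 11.4 and 21.7 TPM against 1.80, 7.60 and 6.23, with a log2 fold change of -0.44 (SE 0.26). Axin2, the feedback member that the pathway itself switches on, had 129, 73 and 197 counts against 9, 18 and 65. In CPM it had 20.7, 9.29 and 13.3 against 20.8, 12.9 and 18.7, and in TPM 3.20, 2.42 and 4.11 against 3.96, 2.06 and 3.17, so that the groups overlapped in both units (log2 fold change 0.25, SE 0.41, edgeR adjusted p = 0.732). In the AAV-VEGF-C libraries only that of experiment 3 had Axin2 above its silent-family percentile.

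The nuclear factors had no common sign, with 2 of 4 log2 differences positive, a median of 0.25 and 0 of 4 called. Tcf7l1, a TCF that acts mostly as a repressor, had 396, 412 and 615 counts under AAV-CTRL and 34, 52 and 146 under AAV-VEGF-C. Its CPM values were 63.6, 52.4 and 41.6 against 78.6, 37.3 and 42.0 (log2 fold change -0.03, SE 0.36), while its TPM values, 17.8, 22.5 and 32.6 against 5.26, 8.12 and 8.21, did not overlap. Tcf7l2 had 307, 370 and 606 counts against 22, 49 and 136, or 49.3, 47.1 and 41.0 CPM against 50.8, 35.1 and 39.1 (log2 fold change -0.15, SE 0.27). Its TPM values of 14.6, 17.3 and 18.5 against 6.0, 8.88 and 11.6 were also apart. Lef1 varied more between libraries of a group than any other gene of this role: it had 11, 97 and 376 counts under AAV-CTRL and 13, 27 and 41 under AAV-VEGF-C, or 1.77, 12.3 and 25.5 CPM against 30.0, 19.4 and 11.8. The difference was positive in experiments 1 and 2 and negative in experiment 3, and the log2 fold change of 0.53 had an SE of 0.83. A list of 6 blood endothelial markers, of which 0 were called, summed to 338, 1356 and 2878 CPM in the same AAV-CTRL libraries and to 608, 938 and 566 in AAV-VEGF-C. Lef1, Fzd6 (14.0, 17.8 and 42.0 CPM) and these markers were thus all lowest in the AAV-CTRL library of experiment 1 and highest in that of experiment 3. In AAV-VEGF-C the order differed: Lef1 and Fzd6 (27.7, 12.9 and 12.4 CPM) were highest in experiment 1 and the marker sum in experiment 2. Of the single markers, Plvap and Cldn5 were highest in experiment 1, and Vwf, Flt1, Emcn and Esam in experiment 2. The part of blood vessel RNA in Lef1 and Fzd6 was not tested. Tcf7 had 31, 31 and 88 counts against 3, 7 and 33 (log2 fold change 0.56, SE 0.47).

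The 3 abundant secreted inhibitors, Sfrp4, Sfrp2 and Dkk3, each had less signal with AAV-VEGF-C in every experiment, though none passed the edgeR test without the block. Sfrp4 (ENSMUSG00000021319.7, chr13:19623104-19632994) had 1483, 1476 and 3625 counts under AAV-CTRL and 53, 93 and 507 under AAV-VEGF-C, which was 238, 188 and 245 CPM against 122, 66.7 and 146. In TPM it had 75.8, 69.1 and 130.4 against 13.1, 14.6 and 40.2, without overlap in either unit. Its log2 fold change was -1.0 (SE 0.35, adjusted p = 0.110, edgeR), and with the experiment as a block -1.06 (adjusted p = 0.0386, edgeR), past the threshold. Sfrp2 (ENSMUSG00000027996.13, chr3:83766321-83774316) had 1052, 366 and 1656 counts against 10, 35 and 199, or 169, 46.6 and 112 CPM against 23.1, 25.1 and 57.2. The groups overlapped, since the AAV-CTRL library of experiment 2 was below the AAV-VEGF-C library of experiment 3, but within each experiment AAV-VEGF-C was lower. In TPM it had 71.0, 16.5 and 55.4 against 2.11, 4.72 and 18.5. Its log2 fold change of -1.59 was the most negative of the 36 (SE 0.55, edgeR adjusted p = 0.109), and -1.45 with the block (edgeR adjusted p = 0.0415). An exon of Sfrp2 overlaps Gm26771, and their reads may not have been told apart. Dkk3 had 1097, 857 and 1827 counts against 26, 91 and 300, or 176, 109 and 124 CPM against 60.1, 65.2 and 86.3 without overlap, and 29.0, 20.5 and 35.2 TPM against 3.25, 7.33 and 12.4. Its log2 fold change was -0.94 (SE 0.30, edgeR adjusted p = 0.0912, and 0.0754 with the block).

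Fibroblasts are a known source of secreted frizzled-related proteins. The 9 fibroblast genes summed to 25025, 10244 and 12001 CPM under AAV-CTRL and to 8654, 6539 and 11336 under AAV-VEGF-C (exact permutation p = 0.2), with Dcn and Ogn, 2 of 9, called lower, 0 higher, and a median log2 difference of -1.35. With the experiment as a block, as in the calls of Sfrp4 and Sfrp2, 5 of the 9 were called lower (Dcn, Ogn, Mgp, Lum and Pdgfra). None of the 9 was at 0 in any library. In AAV-CTRL, Sfrp2 and the fibroblast sum were both highest in experiment 1 and lowest in experiment 2. In AAV-VEGF-C both were highest in experiment 3, but Sfrp2 was lowest in experiment 1 and the fibroblast sum in experiment 2. Within the list, Ogn and Lum were lowest in experiment 1 of AAV-VEGF-C, as was Sfrp2, and the other genes in experiment 2, as was the sum. Sfrp4 was highest in experiment 3 in both groups. The part of fibroblast RNA in the values of Sfrp2, Sfrp4 and Dkk3 was not tested. The 8 LEC markers summed to 2287, 1451 and 1142 CPM against 3864, 1114 and 655 (exact permutation p = 1), in another order over the libraries. A list of 6 genes of smooth muscle and pericytes summed to 580, 519 and 910 CPM against 238, 301 and 513 (exact permutation p = 0.1). The groups did not overlap, and 0 of these genes were called. The part of RNA from such cells in the lower genes was not tested.

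**Figure D3:**
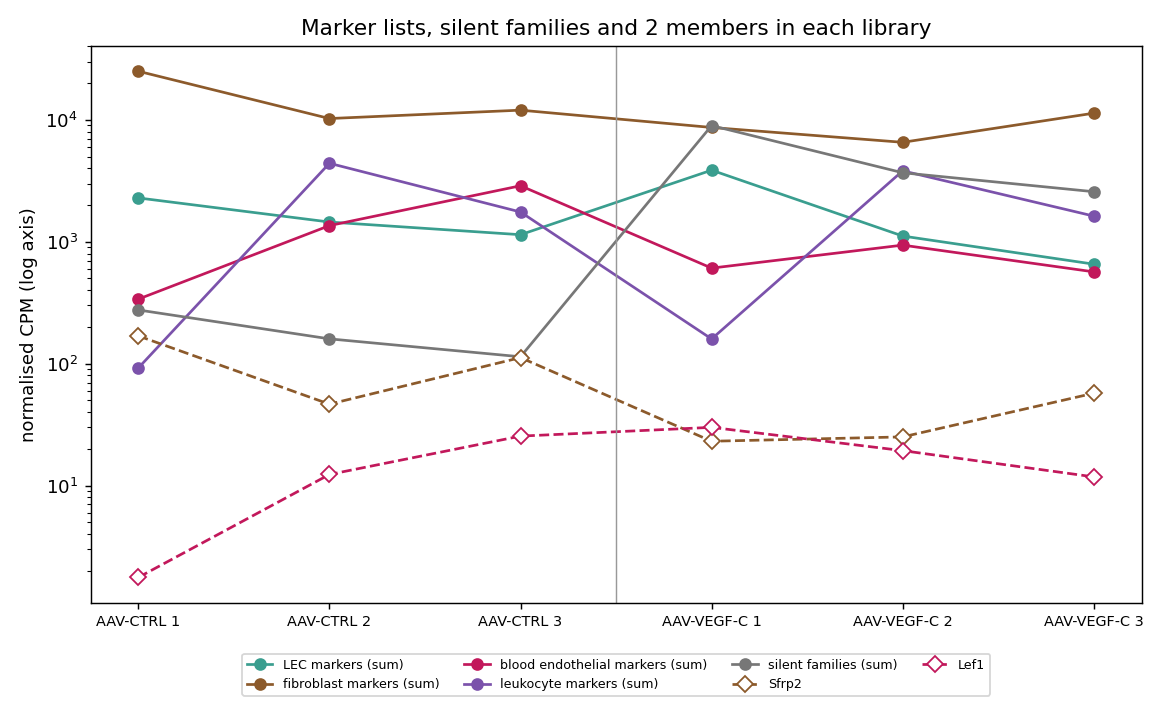
Normalised CPM (log axis) in each of the 6 libraries of the summed LEC, fibroblast, blood endothelial and leukocyte markers, of the summed silent families, and of Sfrp2 and Lef1 singly. The silent families lie between 114 and 276 CPM under AAV-CTRL and between 2573 and 8964 under AAV-VEGF-C, Lef1 is lowest and highest in the same AAV-CTRL libraries as the blood endothelial sum, and Sfrp2 is highest where the fibroblast sum is highest within each group.

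The other secreted inhibitors were low and none passed the test. Dkk2 had 20.7, 14.0 and 9.34 CPM under AAV-CTRL and 30.0, 23.7 and 19.0 under AAV-VEGF-C (log2 fold change 0.69, SE 0.40, edgeR adjusted p = 0.295), higher in each experiment with the groups overlapping. Frzb (0.53), Sfrp5 (0.30) and Sfrp1 (-0.01) had log2 fold changes within 2 SE of 0. Wif1, not tested, had 0, 4 and 32 counts against 1, 1 and 8. Sfrp4 made up 41.5%, 61.4% and 56.5% of the summed TPM of the 8 inhibitors under AAV-CTRL and 56.1%, 44.7% and 51.3% under AAV-VEGF-C (exact permutation p = 0.7). The share of Sfrp2 was 38.9%, 14.7% and 24.0% against 9.08%, 14.4% and 23.7% (exact permutation p = 0.2), nearly the same in both groups in experiments 2 and 3.

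The 3 genes of receptor turnover were among the less abundant genes, and the filter kept Lgr5 through its AAV-VEGF-C libraries alone. Lgr5 (ENSMUSG00000020140.15, chr10:115450311-115587780), the one gene called, had 10, 3 and 11 counts under AAV-CTRL and 3, 6 and 24 under AAV-VEGF-C. In CPM this was 1.61, 0.382 and 0.745 against 6.93, 4.30 and 6.90, without overlap and higher in each experiment, and the log2 fold change was 2.72 (SE 0.71, edgeR adjusted p = 0.0453). In TPM it was 0.492, 0.0540 and 0.213 against 0.384, 0.374 and 1.30, with the groups overlapping. Lgr5 was below the silent-family percentile in all 3 AAV-VEGF-C libraries, where the silent families as a whole had 27.7 times the mean CPM of the AAV-CTRL libraries. The part of this background in the value of Lgr5 was not tested. Leaving out either of the AAV-CTRL libraries 2 and 3 or any of the 3 AAV-VEGF-C libraries took its adjusted p to between 0.0843 and 0.170. Rnf43, the ubiquitin ligase, had 33, 25 and 69 counts against 6, 12 and 36, or 5.30, 3.18 and 4.67 CPM against 13.9, 8.60 and 10.4, also without overlap (log2 fold change 1.27, SE 0.44, edgeR adjusted p = 0.110), and was above the silent-family percentile in none of the AAV-VEGF-C libraries. Znrf3, its paralog, had 24.2, 15.8 and 17.2 CPM against 13.9, 23.7 and 29.3 (log2 fold change 0.28, SE 0.36).

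**Figure D4:**
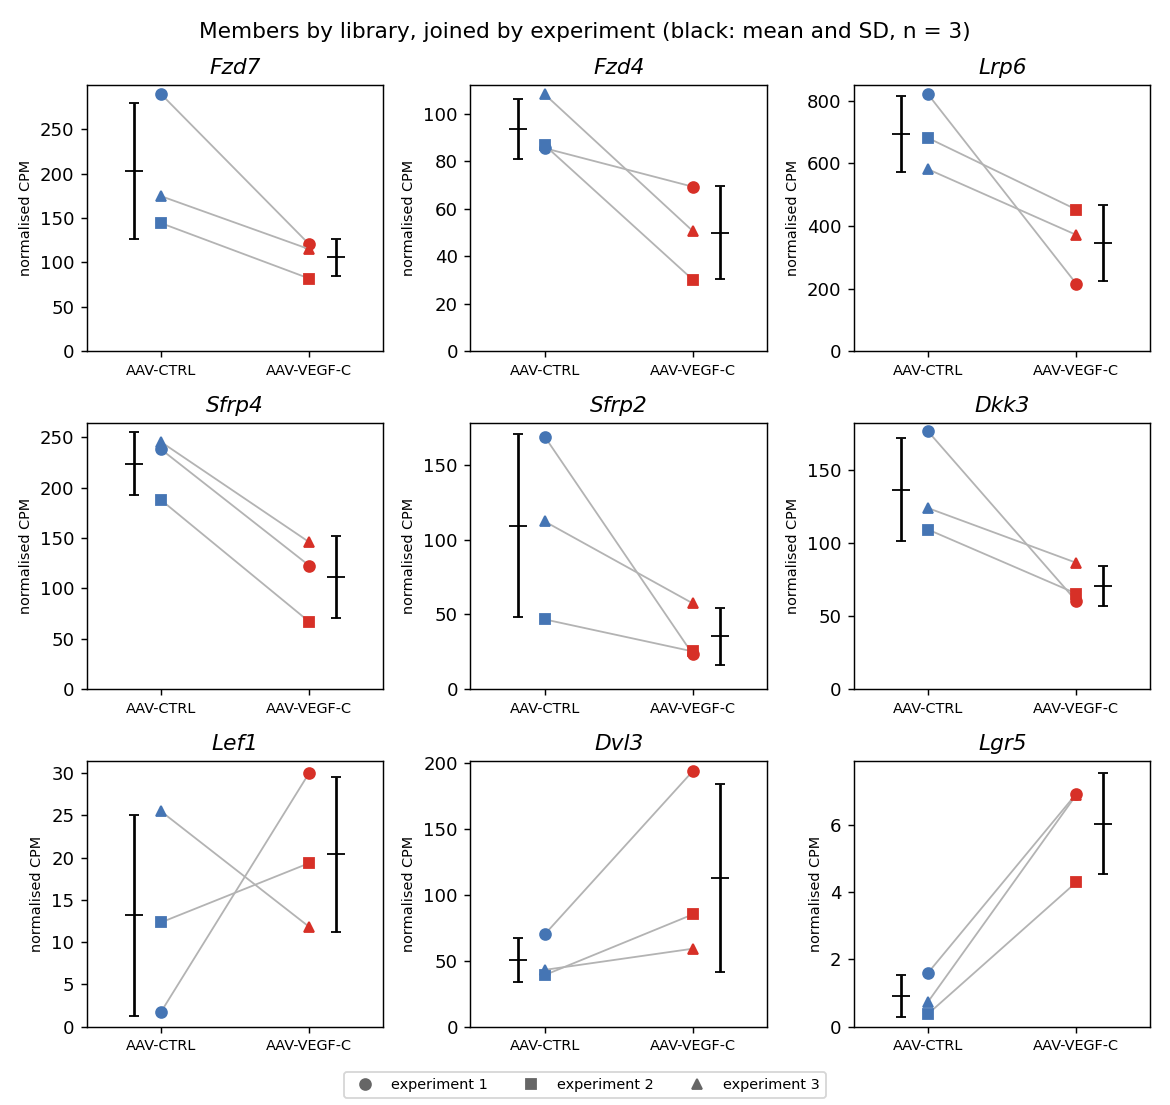
Normalised CPM in each library of 9 of the genes, AAV-CTRL (blue) and AAV-VEGF-C (red), with lines joining the 2 libraries of an experiment and the mean with its SD (n = 3) in black. Fzd7, Fzd4, Lrp6, Sfrp4, Sfrp2 and Dkk3 were lower with AAV-VEGF-C in each of the 3 experiments, Dvl3 and Lgr5 higher in each, and the lines of Lef1 cross.

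Among 61 further genes of the pathway (β-catenin and its nuclear partners, R-spondins, further inhibitors, kinases, feedback genes and genes of planar cell polarity, with no WNT ligand among them), 58 were tested, 5 were called higher and 1 lower, beside 10.5% of all genes called higher and 0.659% lower. Reck, a membrane protein that works with Gpr124 as a receptor for a subset of WNTs, fell from 92.7, 48.6 and 63.6 CPM to 20.8, 25.1 and 29.9 (log2 fold change -1.41, SE 0.33, edgeR adjusted p = 0.0358), and was no longer called without any 1 of the 6 libraries. The 5 called higher were low, and 0 to 4 of the 61 genes were called higher when 1 library was left out. Celsr2, a cadherin of planar cell polarity and the one of the 5 not kept through AAV-VEGF-C alone, rose and had 10.3, 8.65 and 10.8 CPM against 25.4, 21.5 and 42.0 (log2 fold change 1.61, SE 0.36, edgeR adjusted p = 0.0295). Ndp, which encodes the Fzd4 ligand Norrin, had 4, 5 and 4 counts against 12, 13 and 14 (log2 fold change 4.56, SE 0.91, edgeR adjusted p = 0.0231). Dkk1, an antagonist of Lrp5 and Lrp6, had 1, 2 and 1 counts against 7, 7 and 13, Rspo4 1, 0 and 2 against 2, 8 and 16, and Kremen2, a receptor of Dickkopf proteins, 3, 2 and 0 against 3, 3 and 20. For Ndp, Dkk1, Rspo4 and Kremen2 no AAV-CTRL library reached the filter's 2.04 CPM, so these 4 were tested only because they were high in the AAV-VEGF-C libraries, and their calls are given as a description. Dkk1, Ndp, Rspo4 and Kremen2 were above the silent-family percentile in none of the AAV-VEGF-C libraries, and Celsr2 in 1.

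β-catenin itself, Lgr4, Rspo3 and the feedback genes Nkd1, Notum and Apcdd1 did not pass the test. Ctnnb1 had 324, 325 and 420 CPM under AAV-CTRL and 238, 153 and 180 under AAV-VEGF-C, without overlap (log2 fold change -0.91, SE 0.30, edgeR adjusted p = 0.0954). Lgr4, the broadly expressed R-spondin receptor, had 27.0, 19.1 and 31.3 CPM against 4.62, 8.60 and 18.1 (log2 fold change -1.15, SE 0.47, edgeR adjusted p = 0.157), in the direction opposite to Lgr5. The ligand Rspo3 had 102, 60.2 and 77.6 CPM against 83.2, 20.1 and 55.5 (log2 fold change -0.63, SE 0.49). Of the feedback genes, Nkd1 had a log2 fold change of 0.30 (SE 0.39), Notum 2.09 (SE 0.67, edgeR adjusted p = 0.0855, from 4, 10 and 12 counts against 3, 5 and 10, with no AAV-CTRL library at 2.04 CPM) and Apcdd1 1.43 (SE 0.60, edgeR adjusted p = 0.168).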

How the data were processed

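RNA from sorted dural LECs was made into libraries with a stranded total RNA kit for low input. Per gene, the authors deposited an unscaled estimated count and a TPM value, the latter corrected for gene length and library total. The submitters' processing notes name FastQC, Trimmomatic, DRAGEN, Picard and the build mm10, and whether counting used strand or molecular identifiers is not given in the sources used here, so genes with overlapping exons (8 of the 37) are uncertain. Of the 55401 identifiers, 98.1% equal those of GENCODE M21 (GRCm38) with their version and 99.5% without it, and positions come from that annotation.

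Groups came from the labels. Estimated counts were rounded to whole numbers, filtered with filterByExpr (at least 2.04 CPM in 3 libraries), scaled by TMM and compared with edgeR 4.0.16 (R 4.3.3), quasi-likelihood test, Benjamini-Hochberg adjustment over all tested genes at 0.05, without a block. DESeq2, the tool of the study, served as an alternative (1.42.0), as did limma 3.58.1 on log2(TPM + 1) and log2(TPM + 0.1). Other alternatives were DESeq2's size factors, scaling on the 2000 most abundant genes, no filter, a mean of at least 5 TPM, counts drawn down to the smallest total, the experiment as a block and leaving out each library. Replicate numbers mark shared experiments per the labels, and deviations from the group means correlated at 0.37, 0.28 and 0.15 within experiments 1, 2 and 3. Between experiments, AAV-CTRL 3 with AAV-VEGF-C 2 reached 0.22 and AAV-CTRL 2 with AAV-VEGF-C 3 0.055. These values do not tell experiments 2 and 3 apart, so their pairing rests on the labels. Every pair of libraries of a group differed beyond counting noise (a chi-square of at least 7.70 for each degree of freedom). For single values, exact permutation tests (two-sided) ran over all 20 arrangements of the libraries. On simulated counts with AAV-VEGF-C libraries of the real depths, edgeR recovered 73% of 200 genes changed by 2 on the log2 scale, with 3.31% of its calls false (16981 genes tested). The simulation gave every gene the same dispersion and changed only genes above a minimum expected count. It held no experiment effect and no rise of the silent families, so these rates need not hold for the real libraries.

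The 37 genes and all lists were chosen with earlier results of these data known. Full values are given for genes with an adjusted p under 0.05, for the 12 highest in AAV-CTRL TPM and for at least 1 gene of each role. Of the further pathway genes, 7 were named by role and up to 6 called genes per direction by level. Shares of family TPM were added after seeing the data, with their alternatives.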

Additional observations from a re-analysis of the deposited data

How the results depend on the processing

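The count of 1 gene higher stayed with DESeq2's size factors, scaling on the 2000 most abundant genes, no filter, DESeq2 and the block. It was 0 with a mean of at least 5 TPM (which left Lgr5 untested), with limma at either pseudocount, and after drawing counts down (Lgr5 untested), and 0 to 1 when a library was left out. The count of 0 lower became 7 with no filter, 4 with DESeq2, 1 (Sfrp2) with limma on log2(TPM + 1) and 2 with the replicate block, and remained 0 without any 1 library. Of the further pathway genes, 5 higher became 9 with no filter, 8 with DESeq2, 3 with limma on log2(TPM + 1), 0 with a mean of at least 5 TPM, 0 drawn down, and 0 to 4 without a library. The 1 lower (Reck) became 0 with the 2000-gene scaling, a mean of at least 5 TPM, drawn down or without any 1 library, and 8 with no filter, 5 with DESeq2 and 2 with the block (Reck and Prickle2). With drawn-down counts edgeR called 0 of 7600 genes (405 at an unadjusted p under 0.05) and likewise 0 genes without AAV-CTRL 2 (5071 unadjusted) or without AAV-CTRL 3 (4627). Genes above the silent level in every AAV-VEGF-C library numbered 3, 24 at the 90th percentile, and 3 to 15 without a library. The block also called the fibroblast markers Mgp, Lum and Pdgfra lower (5 of 9 in place of 2), and over all genes took the lower calls from 115 to 362. It changed no other call among the 37 genes, the 61 further ones and the marker lists.

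Of 36 genes, 16 kept their sign in every alternative, but not their size. Among these, Lrp6 went from -1.0 to -0.21 with counts drawn down and to -1.22 with no filter. Sfrp4 went from -1.0 to -0.63 with scaling on 2000 genes and to -1.27 with no filter. The log2 fold changes of the other genes turned over as follows. With limma at a pseudocount of 1 and then of 0.1, Dvl3 was -0.21 and -0.23, Dvl2 -0.22 and -0.30, Lef1 -0.39 and -0.38, Axin2 -0.073 and -0.10, Dkk2 -0.20 and -0.26, Znrf3 -0.50 and -0.84, Tcf7 -0.51 and -0.87, Sfrp5 -0.42 and -0.91, Fzd9 -0.23 and -0.84, and Fzd10 -0.014 with the first alone. With scaling on 2000 genes, Tcf7l1 was 0.38, Tcf7l2 0.22, Dvl1 0.20, Fzd5 0.26, Ror2 0.092 and Sfrp1 0.37. With a mean of at least 5 TPM, Tcf7l1 was 0.36, Tcf7l2 0.22 and Dvl1 0.21. With DESeq2's size factors, Tcf7l1 was 0.030 and Sfrp1 0.041. Drawn down, Lrp5 was 0.080, Axin1 0.97, Dvl1 0.29, Fzd2 0.27 and Fzd8 0.29. Leaving out 1 library at a time gave ranges that crossed 0 for Tcf7l1 (-0.46 to 0.069), Dvl1 (-0.37 to 0.045), Fzd5 (-0.31 to 0.076), Lef1 (-0.046 to 1.33), Ror2 (-0.93 to 0.12), Axin2 (-0.035 to 0.55), Znrf3 (-0.080 to 0.45), Sfrp1 (-0.49 to 0.28) and Fzd9 (-0.070 to 0.85), and, in percentage points of family TPM, for Dvl3 (-1.75 to 16.7) and Sfrp4 (-8.26 to 1.69), alternatives chosen after seeing the data. The causes of these turns were not tested. In AAV-VEGF-C, 564475 to 3261935 counts per library limit what can be read of the low genes, where a few counts set a value.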

Other observations

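How many of the genes had lower values under AAV-VEGF-C differed by unit. From counts, 23 of 36 had a negative log2 difference, with a median of -0.22 beside 0.00 over all genes. From log2(TPM + 1), 33 of 36 were negative, with a median of -0.95 beside -0.72 over all genes, and 16 had an unadjusted p under 0.05 in limma, all of them lower. Relative to the median of all genes, 23 of 36 lay below it from counts and 21 of 36 from log2(TPM + 1). Axin2, the feedback target, had overlapping TPM in the 2 groups, at 3.25 ± 0.846 (SD, n = 3) under AAV-CTRL against 3.06 ± 0.955 under AAV-VEGF-C, and the scaffold Axin1 of the same complex had 21.1 ± 5.31 against 5.66 ± 3.66 TPM, although its normalised CPM overlapped (51.2, 53.6 and 40.8 against 37.0, 33.0 and 42.3).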
